A study of Mus musculus with 9 samples.

Results

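The natriuretic peptide genes and the genes for the processing and receptors of these peptides are described here in cardiomyocyte RNA of CD-1 mice at postnatal day 1 (P1), P14 and P56. Genes of the deposited count table were taken by symbol, and all 7 that were looked for were present among its 15824 genes: Nppa, Nppb, Npr1, Npr2, Npr3, Corin and Furin. There were 9 libraries of RNA depleted of ribosomal RNA, 3 per age, from animals that the labels give no genotype or treatment. Each library came from pooled hearts, 12 at P1 and 6 to 7 at P14 and at P56. The protocols, which are the same text for every library, describe whole myocytes from ventricles with the atria removed and also sorting of nuclei that carry Pcm1, and they do not settle which was done for these libraries. They also mention surgery, which the labels tie to none of them.

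Atrial natriuretic peptide (ANP, from Nppa) and B-type natriuretic peptide (BNP, from Nppb) are hormones that heart muscle releases when it is stretched. The fetal ventricle makes both, and in the mouse the ventricle reduces Nppa after birth while the atria go on making it. ANP is cut from its precursor at the cell surface by corin, and the BNP precursor is cut by furin. Both peptides bind Npr1, a receptor with a guanylyl cyclase domain that makes cyclic GMP (cGMP). Npr2 is the related receptor of C-type natriuretic peptide, and Npr3 binds all of them, lacks the cyclase and removes them from the circulation.

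Nppa and Nppb lie side by side on mouse chromosome 4, on the same strand, and their starts are 14822 bases apart in the RefSeq annotation of GRCm38.p6. Their promoters (250 bases before to 50 bases after the start) are shown because this pair is often treated as 1 stress-response locus, and the values of its genes are set side by side below. Capitals mark letters of a GATA site (GATAA), an NKX2 site (AAGTG), a T-box core site (TCACAC), an MCAT site (GGAATG) or a TATA box (TATAAA), each searched on both strands.
Nppa, chr4:148000472-148000771, plus strand: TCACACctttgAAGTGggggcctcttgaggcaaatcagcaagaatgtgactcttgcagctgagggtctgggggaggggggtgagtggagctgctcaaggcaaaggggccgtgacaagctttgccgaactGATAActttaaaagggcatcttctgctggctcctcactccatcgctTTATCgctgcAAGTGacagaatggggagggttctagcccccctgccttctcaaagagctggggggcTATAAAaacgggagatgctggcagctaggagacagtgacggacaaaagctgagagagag
Nppb, chr4:147985650-147985949, plus strand: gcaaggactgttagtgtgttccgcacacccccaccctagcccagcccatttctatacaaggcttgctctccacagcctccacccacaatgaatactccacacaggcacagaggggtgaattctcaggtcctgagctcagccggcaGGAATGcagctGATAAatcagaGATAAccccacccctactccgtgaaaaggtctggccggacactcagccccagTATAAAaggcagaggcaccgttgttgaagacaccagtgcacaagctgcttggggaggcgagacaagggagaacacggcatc

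Both promoters held 2 GATA sites and 1 TATA box. The TATA box letters began at −9 from the annotated start in Nppa and at −31 in Nppb. The Nppa promoter also held 2 NKX2 sites and 1 T-box core site, letters that the Nppb promoter lacked in this window, and the Nppb promoter held 1 MCAT site that the Nppa promoter lacked. Of 32544 mouse promoters of this length, 25.3% held a GATA site, 46.3% an NKX2 site, 14.3% a T-box core site, 14.6% an MCAT site and 13.6% a TATA box. The promoters of Npr1, Npr2, Npr3 and Corin held none of these letters, and 1 of the 2 listed Furin promoters held 5 NKX2 sites and 1 TATA box.

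Library totals ran from 36619799 counts at P14 to 58538025 at P1, and 1 count corresponded to 0.0158 to 0.0276 CPM (counts scaled to a common library size with TMM factors). All 11 cardiomyocyte markers of the list used were measured, with a summed level of 52207 to 93431 CPM per library. The summed level of 10 endothelial markers was 84.3, 68.7 and 94.8 CPM in the 3 P1 libraries, 528, 335 and 204 CPM in the P14 libraries and 89.1, 47.8 and 35.5 CPM in the P56 libraries, in order of replicate number. For the 10 fibroblast markers, P1 libraries summed to between 155 and 312 CPM, P14 libraries to between 216 and 791 CPM and P56 libraries to between 49.5 and 97.2 CPM. At P14 and at P56, replicate 1 therefore held the most of these other cells' transcripts and replicate 3 the least. In bulk RNA, fewer cells of a type and less RNA per cell cannot be told apart.

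All levels below are CPM with TMM scaling. A log2 change is the fitted later age over the earlier one ± its standard error (SE), and the threshold for a call is an adjusted p of 0.05 in the quasi-likelihood F test of edgeR, corrected over 15817 genes. At P14 compared with P1, 6 of the 7 genes rose (85.7%) and 0 fell, where 28.4% of all genes rose and 27.5% fell (55.9% in either direction). The remaining gene, Nppa, was not called. At P56 compared with P14, 3 of 7 fell (42.9%) and 0 rose, against 28.5% and 27.5% of all genes (56% in either direction). At P56 compared with P1, 3 of 7 rose (42.9%) and 1 fell (14.3%), against 30.9% and 31.7% of all genes (62.6% in either direction). The median log2 change of the 7 was 0.93, −0.24 and 0.61 in these comparisons, and that of all genes 0.00, −0.02 and −0.03. With total counts in place of TMM, the median of all genes shifted to −0.13, −0.13 and −0.27, and the calls over all genes split into 3573 up and 5435 down at P14 over P1 (4493 and 4350 with TMM), 3151 and 5343 at P56 over P14 (4356 and 4504), and 3290 and 6986 at P56 over P1 (4888 and 5016). Each of the 7 genes kept its direction under that scaling in every comparison.

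**Figure D1:**
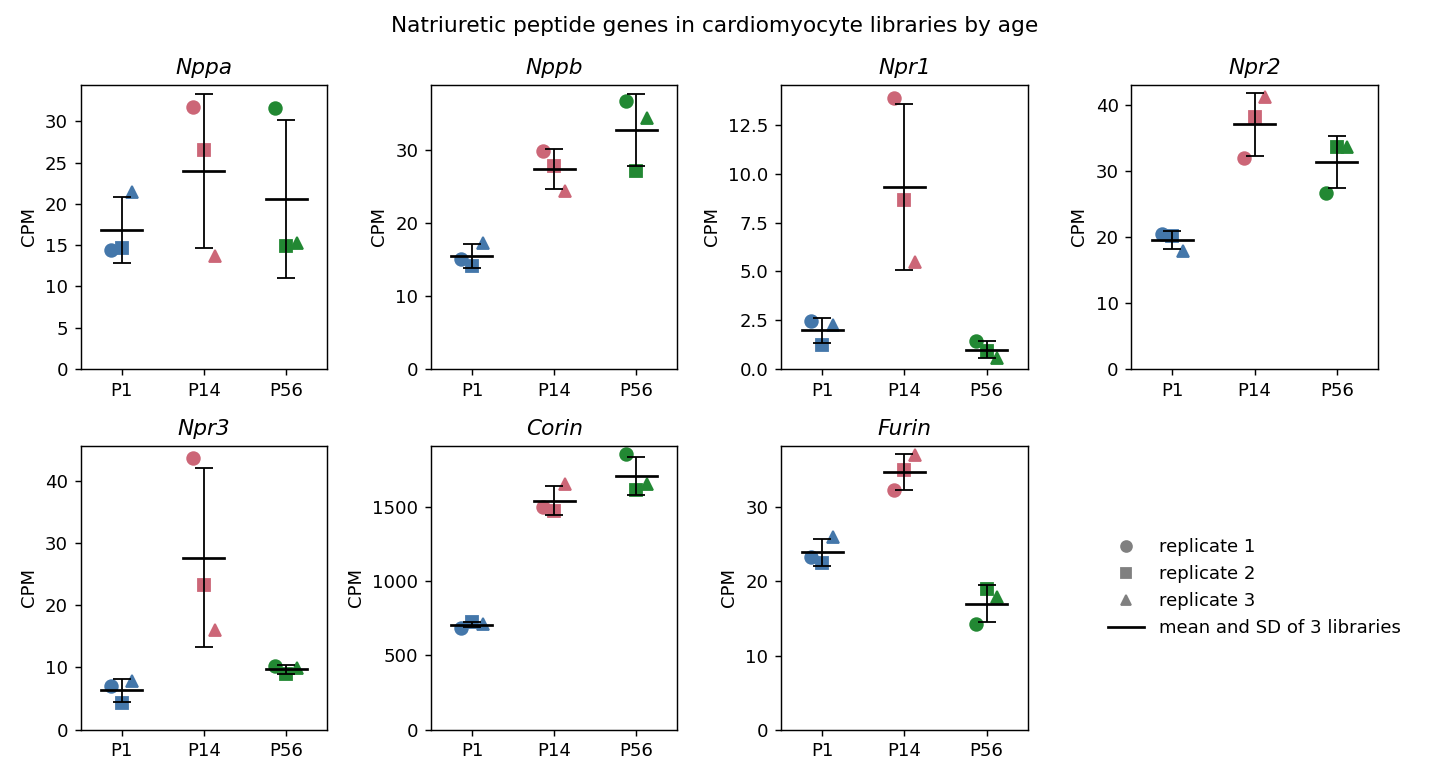
Level in CPM (vertical axis, linear) of each gene at P1, P14 and P56. Each point is 1 library, with its shape giving the replicate number, and the bar with whiskers is the mean ± SD of 3 libraries. Corin stood at 687 to 725 CPM at P1 and at 1475 to 1854 CPM in the later libraries, Npr1 and Npr3 were highest in the P14 libraries with replicate 1 at the top, and the Nppa libraries of the 3 ages overlapped.

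The ANP gene Nppa (ENSMUSG00000041616, chromosome 4 148000722 to 148002079, GRCm38) had no clear trend with age. It was counted 913, 771 and 1192 times in the P1 libraries, 1244, 982 and 497 times at P14 and 1397, 649 and 685 times at P56. These counts gave 14.4, 14.6 and 21.5 CPM at P1, 31.8, 26.6 and 13.7 CPM at P14 and 31.6, 14.9 and 15.3 CPM at P56. The libraries of every pair of ages overlapped, and replicate 1 was the highest library of both P14 and P56.

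The change in Nppa was 0.51 ± 0.36 at P14 over P1 (95% interval −0.28 to 1.31, adjusted p = 0.243), −0.22 ± 0.35 at P56 over P14 (−1.02 to 0.57, adjusted p = 0.617) and 0.29 ± 0.35 at P56 over P1 (−0.50 to 1.08, adjusted p = 0.496). Among the 3 ages together it was not called either (adjusted p = 0.412, where 78% of all genes were called). A 2-fold rise by P14 lies within the first interval. Its coefficient of variation between libraries of an age was 30.3% by edgeR's gene-wise dispersion, against 12.0% for Nppb and 7.37% for Corin. The direction at P56 over P14 turned to 0.03 without P14 replicate 1, and that at P56 over P1 turned to −0.16 without P56 replicate 1.

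Nppa moved with the other cells' markers within P14, where the replicates held 528, 335 and 204 CPM of endothelial markers and 791, 544 and 216 CPM of fibroblast markers. When the mean log2 CPM of 44 markers of other cell types (the marker score) entered the fit beside age, Nppa stood at −1.22 ± 0.26 at P14 over P1 (adjusted p = 0.00235), 2.07 ± 0.33 at P56 over P14 (adjusted p = 0.00111) and 0.85 ± 0.15 at P56 over P1 (adjusted p = 0.000365). The first 2 of these have the opposite sign to the fit by age alone. The score was 1.26 to 1.84 in the P1 libraries, 2.49 to 3.58 at P14 and 0.574 to 1.53 at P56, so P14 overlapped neither other age. The fit takes its slope from differences within an age and carries it across that gap, so age and score are only partly separated in it. The marker score was the only one of 16 alternatives that called Nppa in these comparisons, and adjusted p reached 0.562, 0.947 and 0.904 among the others. The part of the other cell types in the Nppa values was not tested beyond this.

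Markers of atrial myocytes, the main source of Nppa in the adult heart, differed in level and in direction with age. Sln (sarcolipin) was at 0.865 CPM or less in every library, Myl7 (atrial myosin light chain) averaged 2.13 ± 0.573, 1.53 ± 0.995 and 0.203 ± 0.0790 CPM at the 3 ages, and Bmp10 had 0 counts in all 3 P56 libraries, where 3 counts would be 0.0668 to 0.0689 CPM. The 7 atrial markers other than Kcnj3 summed to between 18.0 and 22.4 CPM in the P1 libraries, between 15.4 and 24.3 CPM in the P14 libraries and between 5.17 and 7.72 CPM in the P56 libraries. Kcnj3, a potassium channel subunit chosen as an atrial marker, averaged 85.6 ± 5.81, 144 ± 16.0 and 877 ± 41.2 CPM at the 3 ages. The summed atrial markers other than Kcnj3 in P56 replicate 1, the P56 library with most Nppa, were 7.72 CPM against 5.17 and 6.37 CPM in the others.

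The BNP gene Nppb (ENSMUSG00000029019, chromosome 4 147985788 to 147987205) rose after P1. It stood at 15.0, 14.1 and 17.3 CPM in the P1 libraries, 29.8, 27.8 and 24.3 CPM at P14 and 36.6, 27.1 and 34.4 CPM at P56. Every P14 and P56 library lay above every P1 library, and P14 and P56 overlapped. It rose by 0.82 ± 0.13 at P14 over P1 (1.77-fold, adjusted p = 0.000473) and by 1.08 ± 0.13 at P56 over P1 (2.12-fold, adjusted p = 4.66e-05). From P14 to P56 the change was 0.26 ± 0.13 (95% interval −0.03 to 0.54, adjusted p = 0.108), and 0.38 without P56 replicate 2 (adjusted p = 0.0242). In the fit that includes the marker score it was 0.44 ± 0.19 at P14 over P1, no longer called (adjusted p = 0.0710), 0.78 ± 0.24 at P56 over P14, now called (adjusted p = 0.0318, against 0.0242 to 0.470 over all 16 alternatives), and 1.23 ± 0.12 at P56 over P1 (adjusted p = 1.44e-06).

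Within a library, the level of Nppb per kilobase of exon relative to that of Nppa was 1.15, 1.07 and 0.890 at P1, 1.04, 1.16 and 1.97 at P14 and 1.28, 2.02 and 2.49 at P56. All P56 libraries thus held more of the BNP than of the ANP transcript by this measure, and each lay above all P1 libraries. Among the P14 libraries the ratio was highest in replicate 3, which had least of the other cells' markers.

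Genes within 100 kb of this pair followed several patterns. Clcn6, an endosomal chloride transporter gene, averaged 39.8 ± 2.20, 33.9 ± 2.41 and 19.8 ± 0.998 CPM at P1, P14 and P56 and fell in both intervals (−0.23 ± 0.08 and −0.77 ± 0.08). On the other side of Nppa and Nppb, Mfn2 (mitofusin 2) and Plod1 (a lysyl hydroxylase) rose by 0.73 ± 0.11 and 0.60 ± 0.06 at P14 over P1 and fell by 0.63 and 0.44 at P56 over P14. The open reading frame 2510039O18Rik fell by 0.37 at P56 over P14 (adjusted p = 0.0152), and Agtrap, an angiotensin receptor-associated gene, was called in none of the 3 comparisons (unadjusted p from 0.166 to 0.840 in edgeR's test).

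The antisense gene Gm13054 shares 532 exonic bases with Nppa. It had 67, 53 and 61 counts in the P1 libraries, 21, 22 and 28 at P14 and 28, 41 and 32 at P56, far below those of Nppa, and it fell by 0.73 ± 0.22 at P14 over P1 (adjusted p = 0.0187). No source used here states whether strand entered the counting, so a count in the shared bases cannot be assigned to either gene. Other antisense genes overlap Npr1, Npr2, Npr3, Corin and Furin by 118 to 559 exonic bases. Of these, Gm20647 within Corin averaged 0.159, 0.605 and 0.400 CPM at the 3 ages and Gm44851 within Furin 0.381, 0.304 and 0.218 CPM.

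Corin (ENSMUSG00000005220, chromosome 5 72300025 to 72504473), the gene of the protease that activates ANP, had the most counts of the 7 genes in every library and the smallest spread within an age by edgeR's dispersion. It stood at 687, 725 and 713 CPM in the P1 libraries, 1499, 1475 and 1656 CPM at P14 and 1854, 1616 and 1658 CPM at P56, which placed it above at least 99.0% of all genes in each library. All P14 and P56 libraries lay above all P1 libraries. Corin rose by 1.12 ± 0.08 at P14 over P1 (2.18-fold, adjusted p = 2.32e-06) and by 1.27 ± 0.08 at P56 over P1 (2.41-fold, adjusted p = 4.04e-07). Between P14 and P56 it changed by 0.15 ± 0.07 (95% interval −0.02 to 0.31, adjusted p = 0.119). In the fit that includes the marker score these values were 1.13 ± 0.13, 1.27 ± 0.08 and 0.14 ± 0.16, so the rise was as large with the score as without it.

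How Corin ranks against the peptides depends on the length used, since the table does not say whether introns were counted. Corin spans 204449 bases of which 2.64% are exonic, whereas 63.7% of the 1358 bases of Nppa are. Per kilobase of exon, Corin lay 5.32 to 19.3 times above Nppa in the 9 libraries. Per kilobase of the whole gene it was at 0.221 to 0.802 of the Nppa level. Over 15756 genes, the median level per kilobase of exon was 0.973 to 1.15 CPM among the 25% of genes with the shortest total introns and 5.53 to 6.42 CPM among the 25% with the longest, in every library alike. The place of Corin against the peptides therefore depends on the scale.

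Furin (ENSMUSG00000030530, chromosome 7 80388585 to 80405436), which encodes the proprotein convertase that cuts the BNP precursor and many other precursors, rose and then fell. It stood at 23.3, 22.5 and 26.0 CPM in the P1 libraries, 32.3, 35.0 and 37.0 CPM at P14 and 14.2, 18.9 and 17.9 CPM at P56. The 3 ages did not overlap. Furin rose by 0.54 ± 0.11 at P14 over P1 (1.45-fold, adjusted p = 0.00243) and fell by 1.03 ± 0.11 at P56 over P14 (adjusted p = 6.22e-05), and its change at P56 over P1 was −0.49 ± 0.11 (adjusted p = 0.00333). All of these calls held in each of the 16 alternatives, with adjusted p of 0.0169 or below. Within P14 Furin was highest in replicate 3, the library with least endothelial and fibroblast signal.

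The transcript levels of the proteases that cut ANP and BNP moved apart with age. Per kilobase of exon, Corin over Furin was 50.1, 54.7 and 46.7 in the P1 libraries. It was 78.9, 71.5 and 76.0 at P14 and 222, 145 and 158 at P56, with no overlap between ages. Scaled by the length of the whole gene, the ratio lay between 2.26 and 2.65 for P1 libraries and between 3.47 and 3.83 for P14 libraries. On that scale P56 libraries held ratios between 7.04 and 10.8. The ages thus stayed apart, but the size of the ratio depends on the length used.

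**Figure D2:**
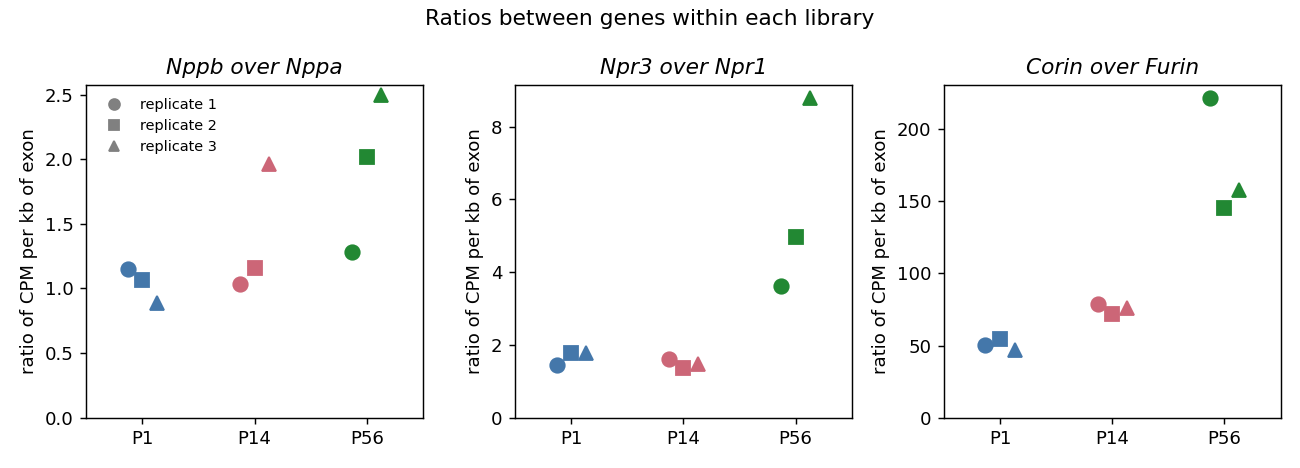
Ratio of the levels of a gene pair in CPM per kilobase of exon (vertical axis, linear, from 0) for Nppb over Nppa, Npr3 over Npr1 and Corin over Furin at P1, P14 and P56. Each point is 1 library. Corin over Furin separated all 3 ages, Npr3 over Npr1 was 1.37 to 1.77 at P1 and P14 and 3.61 to 8.78 at P56, and Nppb over Nppa reached 2.49 at P56.

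Npr1 (ENSMUSG00000027931, chromosome 3 90450591 to 90465866), the cyclase receptor of ANP and BNP, had few counts in these myocyte libraries and a peak at P14. It was counted 154, 65 and 125 times at P1, 544, 320 and 198 times at P14 and 64, 40 and 26 times at P56. These counts gave 2.43, 1.23 and 2.25 CPM at P1, 13.9, 8.65 and 5.46 CPM at P14 and 1.45, 0.918 and 0.579 CPM at P56. Every P14 library lay above every P1 and P56 library, and P1 and P56 overlapped.

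Npr1 rose by 2.24 ± 0.40 at P14 over P1 (4.72-fold, adjusted p = 0.000995) and fell by 3.25 ± 0.43 at P56 over P14 (adjusted p = 0.000194). At P56 over P1 it stood at −1.01 ± 0.43, not called (adjusted p = 0.0655), and it was called there in 8 of 16 alternatives. Within P14 and within P56, the libraries stood in the same order for Npr1 and for the endothelial markers. Npr1 amounted to 1.79% to 2.89% of the endothelial marker sum in the P1 libraries, 2.59% to 2.68% in the P14 libraries and 1.63% to 1.92% in the P56 libraries, a ratio that differed less between libraries than Npr1 itself. In the fit that includes the marker score, Npr1 stood at 0.24 ± 0.29 at P14 over P1 (adjusted p = 0.519), −0.60 ± 0.37 at P56 over P14 (adjusted p = 0.258) and −0.35 ± 0.19 at P56 over P1 (adjusted p = 0.132). Outside this fit, the calls at P14 over P1 and at P56 over P14 held in the other 15 alternatives.

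Npr3 (ENSMUSG00000022206, chromosome 15 11839896 to 11907287), the clearance receptor, also peaked at P14 but kept part of its level at P56. It stood at 6.96, 4.28 and 7.84 CPM in the P1 libraries, 43.7, 23.3 and 16.0 CPM at P14 and 10.3, 8.93 and 9.98 CPM at P56. P14 lay above both other ages, and all P56 libraries lay above all P1 libraries. It rose by 2.12 ± 0.34 at P14 over P1 (4.34-fold, adjusted p = 0.000591) and fell by 1.51 ± 0.34 at P56 over P14 (adjusted p = 0.00388). At P56 over P1 it stood at 0.61 ± 0.34 (95% interval −0.15 to 1.37, adjusted p = 0.141), and it was called there in 3 of 16 alternatives.

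Within P14, Npr3 followed the endothelial markers as Npr1 did, at 8.27%, 6.95% and 7.82% of their sum. At P56 it was 11.5%, 18.7% and 28.1% of that sum, with the highest share in the library that had least endothelial signal, and 10.6%, 14.2% and 20.2% of the fibroblast marker sum. In the fit that includes the marker score Npr3 stood at 0.70 ± 0.38 at P14 over P1 (adjusted p = 0.153) and at 0.47 ± 0.50 at P56 over P14, the opposite sign (adjusted p = 0.521), while at P56 over P1 it was 1.16 ± 0.24 and called (adjusted p = 0.00106, with up to 0.418 among the alternatives). Npr3 is used as a marker of endocardium. The endocardial markers Cytl1, Plvap and Hapln1 together summed to 0.796 to 2.45 CPM in the P1 libraries, 3.31 to 7.64 CPM in the P14 libraries and 0.735 to 1.27 CPM in the P56 libraries. The fourth, Nfatc1, also rose, from 16.6 ± 0.493 CPM at P1 to 55.7 ± 3.02 CPM at P14, but stayed at 57.0 ± 3.06 CPM at P56.

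Npr2 (ENSMUSG00000028469, chromosome 4 43631935 to 43651244), the receptor of C-type natriuretic peptide, was the most abundant receptor of the 3 in every library, per kilobase of exon and per kilobase of the whole gene. In plain CPM this held except in P14 replicate 1, where Npr3 stood at 43.7 CPM. The Npr2 level was 20.5, 20.1 and 18.0 CPM at P1, 31.9, 38.2 and 41.3 CPM at P14 and 26.8, 33.7 and 33.7 CPM at P56. All P14 and P56 libraries lay above all P1 libraries, and P14 overlapped P56. Npr2 rose by 0.93 ± 0.12 at P14 over P1 (1.90-fold, adjusted p = 0.000146) and by 0.69 ± 0.12 at P56 over P1 (1.61-fold, adjusted p = 0.000638), with −0.24 ± 0.12 at P56 over P14 (adjusted p = 0.108). The last was −0.34 without P14 replicate 1 (adjusted p = 0.0210). Unlike the other receptors, within P14 and within P56 it was lowest in replicate 1, where the endothelial markers were highest. In the fit that includes the marker score it rose by 1.42 ± 0.13 at P14 over P1 (adjusted p = 4.92e-06) and fell by 0.93 ± 0.17 at P56 over P14 (adjusted p = 0.00249).

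**Figure D3:**
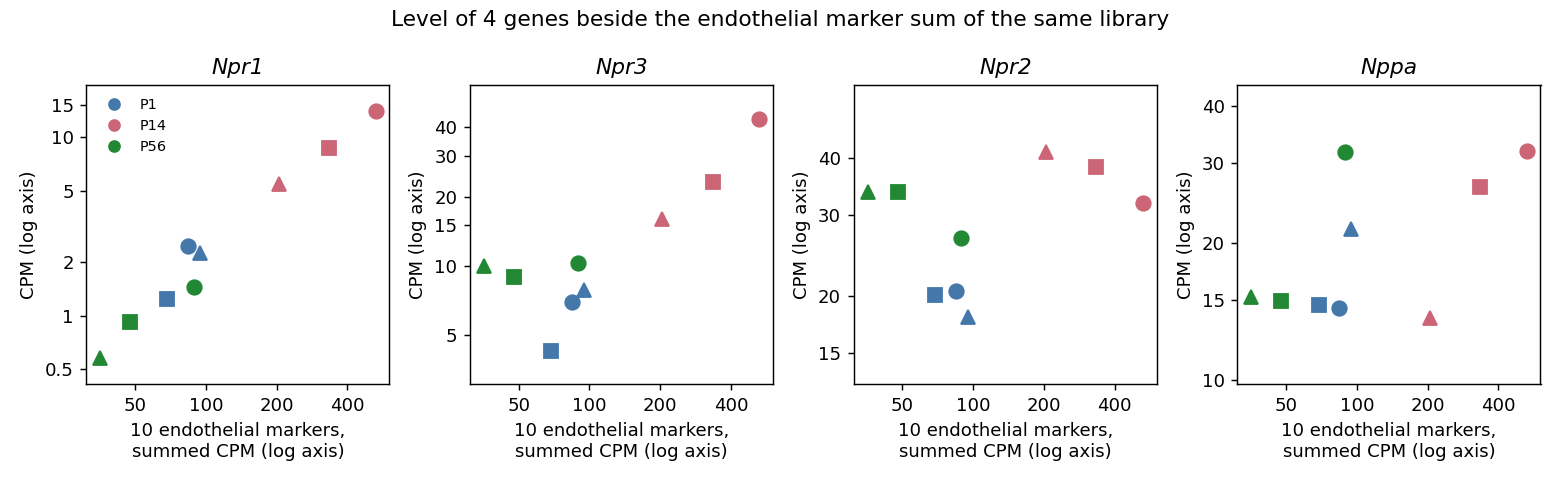
Level of Npr1, Npr3, Npr2 and Nppa in CPM (vertical axes, log scale) against the summed CPM of 10 endothelial markers in the same library (horizontal axes, log scale). Each of the 9 points is 1 library, with colour for age and shape for replicate number. Npr1 follows the marker sum within P14 and within P56, Npr3 does so at P14 but stays at 8.93 to 10.3 CPM over the P56 libraries, and Npr2 is lowest in the replicate 1 libraries of P14 and P56.

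The proportions among the receptors changed as well. Per kilobase of exon, Npr3 over Npr1 was 1.46, 1.77 and 1.77 at P1, 1.60, 1.37 and 1.49 at P14 and 3.61, 4.95 and 8.78 at P56. Npr2 over Npr1 was 8.61, 16.7 and 8.17 at P1, 2.35, 4.53 and 7.74 at P14 and 18.9, 37.6 and 59.7 at P56. Both ratios were higher in every P56 library than in any earlier one. Per kilobase of the whole gene, Npr3 stood below Npr1 in all P1 and P14 libraries (ratios of 0.609 to 0.789) and above it in all P56 libraries (1.61 to 3.91), so their order before P56 depends on the length used.

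Ordered by mean level per kilobase of exon, the 7 genes at P1 were Corin (131 ± 3.604), Nppb (19.8 ± 2.10), Nppa (19.5 ± 4.64), Npr2 (4.18 ± 0.290), Furin (2.61 ± 0.198), Npr3 (0.677 ± 0.197) and Npr1 (0.412 ± 0.135) CPM per kilobase (SD, n = 3 each). The order was the same at P14, from 286 ± 18.2 for Corin to 2.94 ± 1.53 for Npr3 and 1.95 ± 0.891 for Npr1, and at P56, from 317 ± 23.6 for Corin to 1.04 ± 0.0755 for Npr3 and 0.205 ± 0.0917 for Npr1. The libraries of Nppb and Nppa overlapped at every age, those of Npr3 and Npr1 at P1 and P14, and those of Furin and Npr3 at P14. The other neighbours in this order did not overlap. Corin was also first in plain CPM, but not per kilobase of the whole gene, as given above. On that last scale, Furin stood above Npr2 at P1 (1.42 against 1.01 CPM per kilobase) and P14 (2.06 against 1.92). Nppa stood above Nppb on it at P1 (12.4 against 10.9).

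The change from P14 to P56 differed from that from P1 to P14 in 5 of the 7 genes by a contrast in the same fit, all downward, where 26% of all genes were called downward and 24.1% upward. The difference was −5.49 ± 0.65 for Npr1 (adjusted p = 0.00016), −3.62 ± 0.55 for Npr3 (adjusted p = 0.00059), −1.57 ± 0.19 for Furin (adjusted p = 0.000164), −1.17 ± 0.20 for Npr2 (adjusted p = 0.00119) and −0.98 ± 0.13 for Corin (adjusted p = 0.000252). It was −0.56 ± 0.22 for Nppb (adjusted p = 0.0555) and −0.74 ± 0.61 for Nppa (adjusted p = 0.337), neither called. Once the marker score was added, the difference stayed called for Npr2, Furin and Corin and was −0.84 for Npr1 (adjusted p = 0.346) and −0.23 for Npr3 (adjusted p = 0.867). In that fit the Nppa difference turned to 3.28 ± 0.57 and was called (adjusted p = 0.00165, with up to 0.788 among its 15 alternatives). Leaving out P14 replicate 1 took the difference to −4.68 for Npr1 and −2.63 for Npr3, and leaving out P14 replicate 3 took it to −6.03 and −4.18, all still called.

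**Figure D4:**
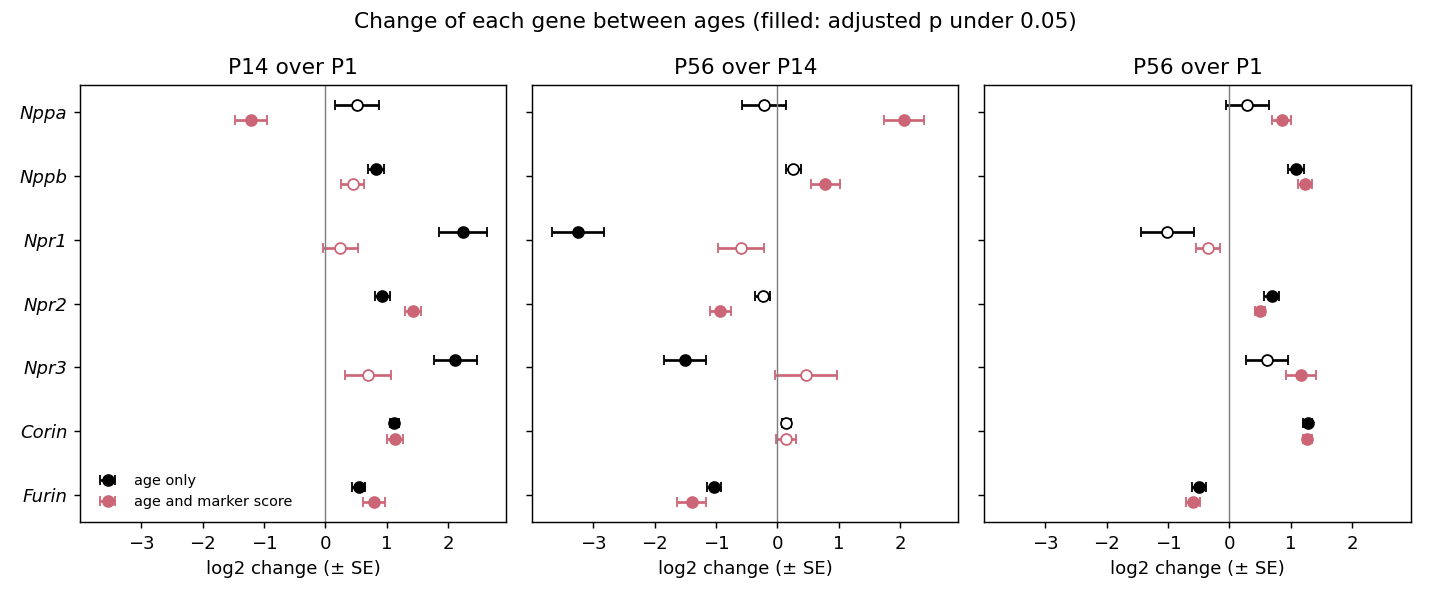
Log2 change (horizontal axis, points ± SE) of each gene for P14 over P1, P56 over P14 and P56 over P1, from a fit with age alone (black) and a fit with age and the marker score of other cell types (red). Filled points have an adjusted p under 0.05. Corin keeps its values and Furin its calls in both fits, Npr1 moves toward 0 in the first 2 comparisons, Npr3 moves toward 0 in the first and changes sign in the second, and Nppa changes sign in both.

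Genes with the most similar profile over the 9 libraries, by Pearson's r of log2 CPM among genes of at least 10 CPM on average, differed between the 7. Libraries of an age share their age, so these r values mainly describe the age pattern and the replicate order. For Npr1 they were Eng (endoglin), Col15a1 and Cd93 (r of 0.993, 0.993 and 0.992), and for Npr3 Ece1, Abi3bp and Htra3 (0.981, 0.978 and 0.974). For Nppa they were Ostf1, Sepp1 and Dcn (0.908, 0.896 and 0.868), of which Dcn (decorin) is on the fibroblast list. For Nppb they were Cyp2j6, 4930523C07Rik and Sema3c (0.980, 0.980 and 0.9748), for Npr2 Anks1, Gm16576 and Scarf1 (0.996, 0.996 and 0.994), for Corin Exoc8, Gm20532 and Gm5532 (0.996, 0.995 and 0.994), and for Furin Eif2b5, Pdlim7 and Carmn (0.979, 0.978 and 0.978). Eng averaged 9.22 ± 2.62, 39.8 ± 16.3 and 6.16 ± 2.77 CPM at the 3 ages.

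Other genes of the pathway were taken from a list of 53 symbols, of which 48 were tested. Gucy1a3 and Gucy1b3 stand in the list also under later names, and Nppc (the C-type peptide), Ostn (a peptide that binds Npr3) and Prkg2 were not analysed here. At P14 over P1, 25 of 48 rose (52.1%) and 11 fell (22.9%), with a median of 0.44. At P56 over P14, 6 rose (12.5%) and 28 fell (58.3%), with a median of −0.58. At P56 over P1, 11 rose (22.9%) and 22 fell (45.8%), with a median of −0.23. The shares over all genes are those given above. Over the same intervals the 10 endothelial markers all rose and then all fell (medians 2.24 and −2.69). Once the marker score was added, the list had 12 rises at P14 over P1 (25%, against 23% of all genes in that fit) and 14 falls at P56 over P14 (29.2%, against 13.5% of all genes).

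Of 6 genes of peptide processing and breakdown, 4 rose (66.7%) and 2 fell (33.3%) at P14 over P1, against 28.4% and 27.5% of all genes. At P56 over P14, 1 rose (16.7%) and 3 fell (50%), against 27.5% and 28.5% of all genes. Mme, which encodes neprilysin, the main enzyme that degrades natriuretic peptides, averaged 1.78 ± 0.443, 19.5 ± 1.51 and 40.4 ± 3.81 CPM at the 3 ages. It rose by 3.44 ± 0.17 at P14 over P1 (adjusted p = 3.09e-07) and by another 1.05 ± 0.14 at P56 over P14 (adjusted p = 0.00024). Pcsk6, the convertase that activates corin, averaged 4.26 ± 0.863, 37.2 ± 23.7 and 7.31 ± 3.38 CPM, with P14 libraries from 15.6 to 62.6 CPM, and it rose by 3.12 ± 0.49 and then fell by 2.35 ± 0.47. Dpp4, which trims BNP, rose by 1.75 ± 0.36 and fell by 1.96 in the same intervals. Pcsk5 fell by 1.39 and 0.59, Pcsk7 rose by 0.41 ± 0.09 at P14 over P1, and Ide, an insulin-degrading enzyme that also cuts ANP, fell by 0.51 there.

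Soluble guanylyl cyclase makes cGMP by the nitric oxide route, apart from the natriuretic receptors. Of 3 soluble guanylyl cyclase genes, Gucy1a2 rose at P14 over P1 (1.77 ± 0.45), a share of 33.3% against 28.4% of all genes. All 3 fell at P56 over P14, where 28.5% of all genes fell, with Gucy1a3 at −2.26 ± 0.42, Gucy1b3 at −1.94 ± 0.46 and Gucy1a2 at −1.56 ± 0.45. Prkg1, the cGMP-dependent kinase, averaged 1162, 1568 and 1519 CPM at the 3 ages and rose by 0.43 ± 0.08 at P14 over P1. Per kilobase of exon Prkg1 was at 107, 144 and 140 CPM, but per kilobase of the whole gene at 0.968, 1.31 and 1.27 CPM. As for Corin, its rank therefore depends on the length used. Of 9 genes of this kinase and its targets, 6 rose (66.7%) and 1 fell (11.1%) at P14 over P1, against 28.4% and 27.5% of all genes. Rgs4 was at 2.82 ± 0.50, from a mean of only 0.325 CPM at P1 to 2.33 CPM at P14. Mrvi1 was at 1.96 ± 0.29 and Rgs2 at 1.68 ± 0.16, against Ppp1r12a at −0.46 ± 0.05. At P56 over P14, 5 fell (55.6%) and 1 rose (11.1%), against 28.5% and 27.5% of all genes. The falls were led by Trpc6 (−2.83 ± 0.42), a channel that the kinase inhibits, and Mrvi1 (−1.93 ± 0.29), while Ppp1r12a rose by 0.22 ± 0.05. Trpc6 averaged only 1.52 CPM at P14 and 0.211 CPM at P56.

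Of 9 phosphodiesterases that break down cGMP, 7 fell (77.8%) and 0 rose at P56 over P14, at adjusted p of 0.0106 or below. The shares of all genes were 28.5% and 27.5%. Pde9a, which is selective for cGMP and acts on the pool made by natriuretic peptide receptors, averaged 6.70, 11.01 and 0.979 CPM at the 3 ages and fell by 3.49 ± 0.31 (adjusted p = 2.06e-05). Pde1b fell by 2.10 ± 0.48, from a mean of only 0.846 CPM at P14 to 0.196 CPM at P56, and Pde5a by 2.03 ± 0.34. At P14 over P1, 4 of 9 rose (44.4%) and 2 fell (22.2%), against 28.4% and 27.5% of all genes. The rises were led by Pde1a (1.80 ± 0.49), Pde10a (0.74 ± 0.16) and Pde9a (0.72 ± 0.27), and the falls were those of Pde3b (−1.52 ± 0.20) and Pde1c (−0.18 ± 0.07). Pde3a, whose cyclic AMP breakdown is inhibited by cGMP, rose by 0.64 ± 0.07 there and did not fall past the threshold later (−0.18 ± 0.07, adjusted p = 0.0595).

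Transcription factors and cofactors that act at Nppa or Nppb changed in both directions. At P14 over P1, 10 of 21 rose (47.6%) and 6 fell (28.6%), against 28.4% and 27.5% of all genes. The share of falls there was near that of all genes. At P56 over P14, 4 rose (19.0%) and 10 fell (47.6%), against 27.5% and 28.5% of all genes. At P56 over P1, 5 rose (23.8%) and 10 fell (47.6%), against 30.9% and 31.7%. Tbx20 fell by 1.24 ± 0.08, Mef2a by 0.81 ± 0.07 and Gata4, a factor that binds GATA sites, by 0.67 ± 0.07 at P14 over P1. Tbx2, a repressor of Nppa, rose by 1.46 ± 0.25, Klf13 by 1.16 ± 0.05 and Tbx3 by 0.91 ± 0.21. At P56 over P14 Mef2c rose by 0.98 ± 0.12, and Nfatc4 and Tbx2 fell by 2.39 ± 0.44 and 2.05 ± 0.27. At P56 over P1 Hdac4, a repressor of Mef2 factors, and Mef2c rose by 1.26 ± 0.14 and 0.90 ± 0.12, and Tbx20 and the repressor Rest fell by 1.34 ± 0.08 and 0.93 ± 0.08.

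**Figure D5:**
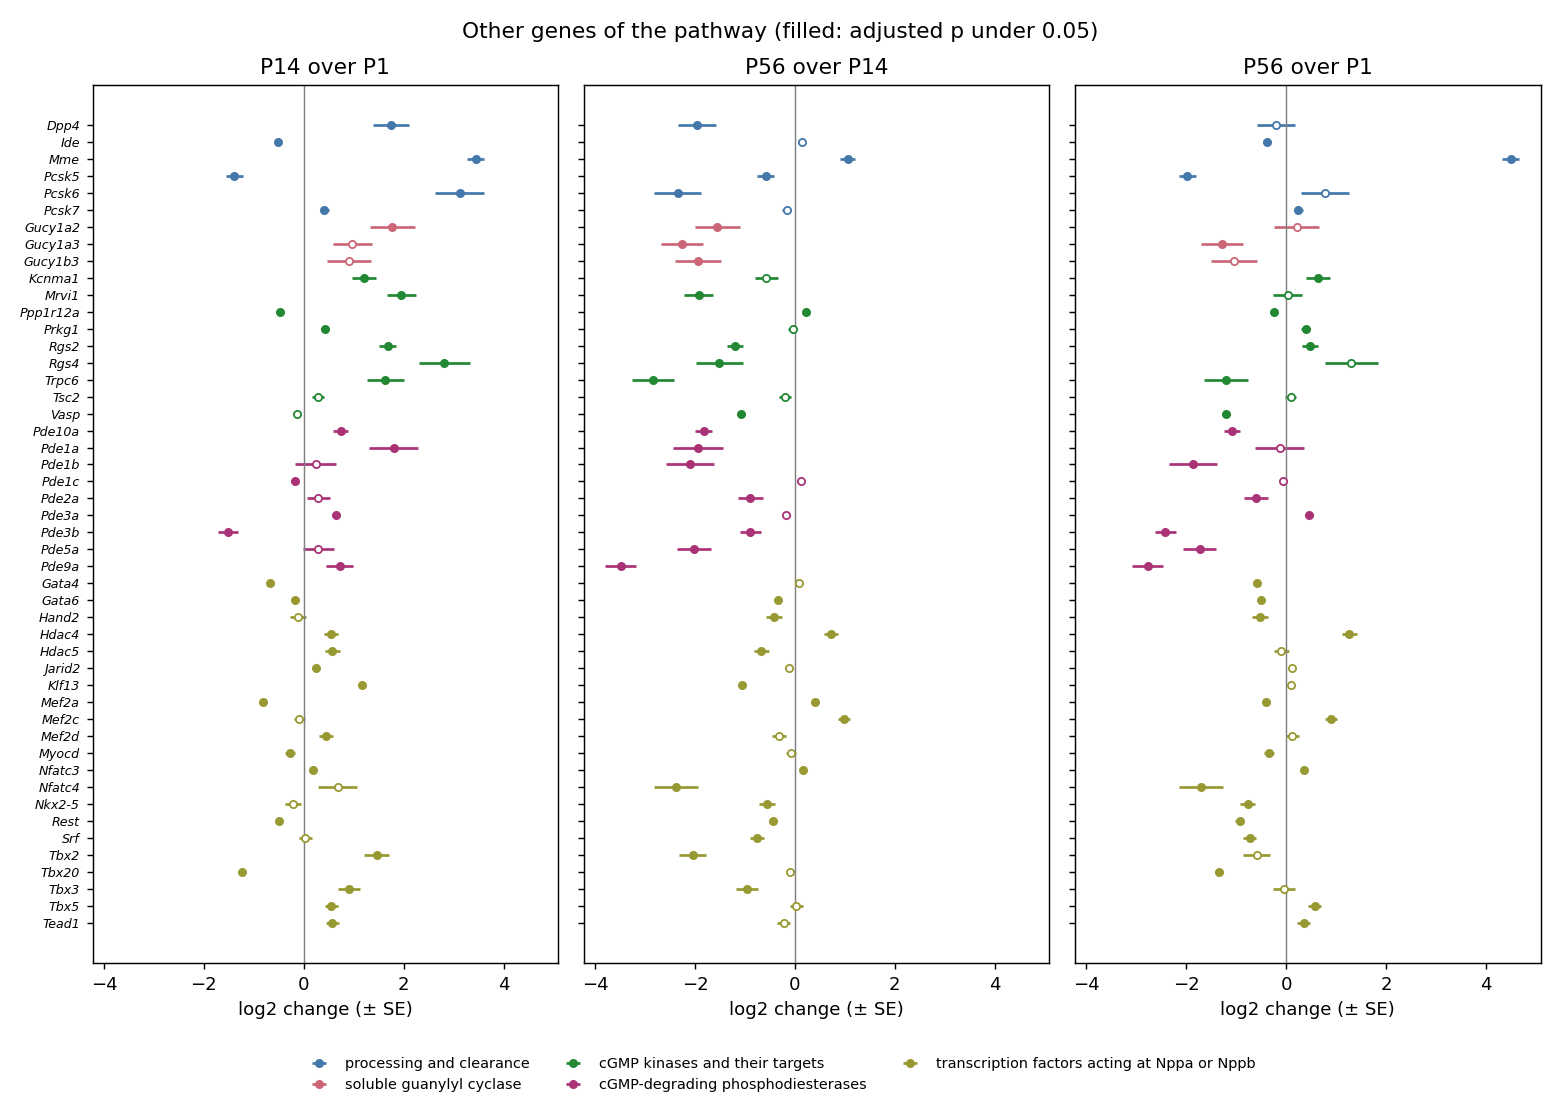
Log2 change (horizontal axis, points ± SE) of 48 other genes of the pathway for P14 over P1, P56 over P14 and P56 over P1, coloured by list. Filled points have an adjusted p under 0.05. Mme is furthest to the right in all 3 panels, Pcsk6 changes side after P14, and 7 of the 9 phosphodiesterases lie left of 0 and filled in the middle panel.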

How the data were processed

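The authors deposited 1 table of counts per gene, whole numbers in 9 columns that were matched to samples by title. The build GRCm38 and the tools STAR 2.4.0g1, featureCounts 1.4.2 and bcl2fastq 2.17.1.14 are named in the submitters' processing notes. The feature counted and the strand setting are not given in the sources used here. The smallest mean count in the table was 10.

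Counts were analysed in R 4.3.3 with edgeR 4.0.16 (filterByExpr, TMM, glmQLFit and glmQLFTest, Benjamini-Hochberg adjustment over 15817 genes), with age as the only term and all 9 libraries in 1 fit. The filter removed 7 genes and no member. DESeq2 1.42.0, other scaling, no filter, the replicate block, the marker score, fits of 2 ages and leaving out each library served as alternatives. The test was run on simulated counts beforehand. Gene coordinates and lengths came from GENCODE for GRCm38, and promoters from RefSeq. Named genes were the 7 members, up to 3 genes per pathway list, direction and comparison, genes within 100 kb of Nppa or Nppb or overlapping a member, and the 3 genes most correlated with each member. A gene in that window is not reported here. Members and lists were chosen with earlier results of these data known. The series describes the libraries of an age as biological replicates, each from pooled hearts, so p-values measure the spread between pools and not between animals. Counting error only is covered by the floor of 3 counts.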

Additional observations from a re-analysis of the deposited data

How the results depend on the processing

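For the 7 genes, 28 results were recomputed under 441 alternative values, of which 406 kept direction and side of the threshold. No result changed with RLE size factors or without the filter. The marker score in the fit moved most of them. Signs turned for Nppa (−1.22 at P14 over P1, 2.07 at P56 over P14, 3.28 for the difference between the intervals), Npr3 (0.47 at P56 over P14) and Nppb (0.34 for the difference). Calls were lost for Nppb (0.44), Npr1 (0.24) and Npr3 (0.70) at P14 over P1, for Npr1 at P56 over P14 (−0.60), and for the difference in Npr1 (−0.84) and Npr3 (−0.23). The turned values of Nppa were all called, and calls were also gained at P56 over P14 for Nppb (0.78) and Npr2 (−0.93) and at P56 over P1 for Nppa (0.85) and Npr3 (1.16). Over all genes, that fit called 3639 up and 3727 down at P14 over P1, 2256 up and 2132 down at P56 over P14, and 2334 up and 2465 down for the difference. Of the pathway genes it called 12 up at P14 over P1, 14 down at P56 over P14 and 14 down for the difference. The fitted slope of the score rests on differences between replicates of an age and is carried across the gap between P14 and the other ages. The cause of the score differences was not tested.

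Npr1 at P56 over P1 passed the threshold with total counts (−1.25), only the 2 ages in the fit (−1.01), DESeq2 (−0.996, adjusted p = 0.0309) and the replicate block (−1.06, adjusted p = 0.0155). Npr3 at P56 over P1 passed it with only the 2 ages in the fit (0.61, adjusted p = 0.0190), Npr2 at P56 over P14 with total counts (−0.35), and the difference in Nppb with DESeq2 (−0.57) and the replicate block (−0.58). Total counts left 4 pathway genes up at P56 over P1. The replicate numbers are not stated to mark shared animals or days, and same-numbered libraries did not all deviate together (correlations −0.219 to 0.493, and not every library correlated best with its own number), so the block was not used as pairing. It called 4524 genes up and 4300 down at P14 over P1.

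Leaving out 1 library gave −0.67 to 0.0324 (Nppa), 0.17 to 0.38 (Nppb) and −0.34 to −0.14 (Npr2) at P56 over P14, −0.16 to 0.50 (Nppa), −1.40 to −0.74 (Npr1) and 0.40 to 0.79 (Npr3) at P56 over P1, and −0.72 to −0.43 (Nppb), −6.03 to −4.68 (Npr1) and −4.18 to −2.63 (Npr3) for the difference. Npr1 at P56 over P1 was called without P1 replicate 2, P14 replicate 1, P14 replicate 3 or P56 replicate 1, Npr3 there without P14 replicate 1, and the difference in Nppb without P1 replicate 3, P14 replicate 3 or P56 replicate 1. Pathway genes called up at P56 over P1 ran from 7 to 13, with 7 without P1 replicate 2. Among the 7 genes, the fewest counts behind a value were 26, for Npr1 in P56 replicate 3. Some other genes named above had fewer, such as Gm20647 with 8 in P1 replicate 1 and Bmp10 with 0 at P56. The cause of these changes was not tested.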
